A study of Xenopus tropicalis with 18 samples.

Results

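The ribosomal protein genes were followed through the Foxi2 and Sox3 morphant RNA-seq of *Xenopus tropicalis*. Members were chosen by symbol, as genes named rpl or rps with a number, or rplp0 to rplp2, present in each of the 4 count tables and with a mean of at least 1 CPM (counts of a gene scaled to a common total per library) over the 9 control libraries. Of 28850 genes in each table, 89 symbols matched. The rps6k kinase genes and names that end in l1 or l2 were left out, which removed 11, and the level removed another 2. The remaining 76 members comprised 45 genes of the large subunit and 31 of the small subunit by symbol, and each was found by symbol in the RefSeq annotation of the UCB_Xtro_10.0 assembly. *rps19bp1* is taken in by its symbol but encodes a protein that binds Rps19, not a subunit of the ribosome. The lowest member was *rps27l*, with a mean of 1.56 CPM over the controls, and the nearest gene left out by level was *rpl3l*, far below the limit with 0.0131 CPM.

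Each cytoplasmic ribosome holds a small subunit, which reads the mRNA, and a large subunit, which joins the amino acids. Their proteins are made in near-equal amounts from separate genes, and in vertebrates the mRNAs share a 5′ terminal oligopyrimidine tract, through which mTOR signalling sets their translation. In *Xenopus laevis*, maternal ribosomal protein mRNAs lose their poly(A) tails and leave polysomes when the oocyte matures, and the egg carries a large store of finished ribosomes, so that the early embryo can translate before new ones are made. Zygotic transcription begins at the mid-blastula transition, shortly before the earlier of the stages sampled here.

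Whole embryos from in vitro fertilization were sampled, and no sample label names a transgene or a mutant allele. Foxi2 morphants received a translation-blocking morpholino against *foxi2*, Sox3 morphants a translation-blocking morpholino against *sox3*, each into the animal side of embryos at the 1-cell or the 2-cell stage. Separate controls went with each factor, which the sample titles call controls and the study describes as wild type, whereas the treatment field reads morpholino for all libraries. No control morpholino is named, so injection and knockdown cannot be told apart. RNA was taken at stage 9, the late blastula, and at stage 10.5, the early gastrula, with 3 morphant and 3 control libraries for Foxi2 at late blastula and 2 and 2 for each of the other 3 comparisons, 18 in all. The labels do not say whether replicates came from separate clutches, so p-values measure the spread between these libraries, which may be technical. The libraries were poly(A)-selected, so fewer molecules and shorter tails cannot be told apart, nor can fewer expressing cells and less RNA per cell. The totals ran from 12740571 to 27866261 counts per library, of which the members took 38919 to 258831.

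The libraries of a group differed in the level of zygotic genes, and some of these genes move with the results that follow. *tbxt*, a mesodermal gene switched on by zygotic transcription, had 0.633, 38.9 and 262 CPM in the Foxi2 series controls of late blastula, replicates 1 to 3, and 0.178, 44.5 and 235 CPM in the morphants with the same numbers. By early gastrula the controls reached 457 and 194 CPM and their morphants 392 and 173 CPM. In the Sox3 series *tbxt* had 12.4 and 7.04 CPM in the late blastula controls and 419 and 394 CPM in the early gastrula controls. The Sox3 morphants had 1.58 and 2.22 CPM at late blastula and 359 and 279 CPM at early gastrula, below the same-numbered control in each pair. *mixer*, another germ layer gene, lay above its control in each of these pairs. Replicate 1 of the Foxi2 late blastula therefore held almost no *tbxt*, and replicate 3 more than replicate 2 of the early gastrula. Of the 11 germ layer genes read as a check on the stage label, 11 were higher at early gastrula in each series' controls, by a median log2 change of 1.58 (Foxi2 series) and 3.17 (Sox3 series). The morpholinos block translation, so the transcripts of their targets are no measure of the depletion. *foxi2* had 110.0 to 395 CPM among the Foxi2 series libraries and *sox3* 449 to 1717 CPM in the Sox3 series, higher in the morphant than in the same-numbered control in each of the 9 pairs. Libraries with the same number deviated together (processing section), so morphant and control of a number are read as a pair.

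Together the members took a small part of each library, between 0.248% and 1.08% of all counts. In the Foxi2 series at late blastula their share was 0.248, 0.323 and 0.501% in the controls and 0.264, 0.414 and 0.538% in the morphants, replicates 1 to 3. At early gastrula it was 0.568 and 0.296% in the controls and 0.611 and 0.341% in the morphants. The share was higher in the morphant in each of the 5 Foxi2 pairs, yet libraries of the same group lay far apart and the groups overlapped at both stages. In the Sox3 series it was 0.489 and 0.449% in the late blastula controls and 0.404 and 0.427% in their morphants. At early gastrula it was 1.08 and 0.791% in the controls and 0.700 and 0.776% in the morphants. Here the share was lower in the morphant in each of the 4 pairs, and the groups did not overlap at either stage. In the Foxi2 series the order of the shares within each group was the order of *tbxt* in the same libraries. Other germ layer genes broke this order at early gastrula, where replicate 2 had the lower share. *foxi1* had 5.41 and 26.3 CPM in the controls and 3.06 and 16.5 CPM in the morphants. *sox17b.1* was also higher in replicate 2 of both arms, and *gsc* and *sox17a* in the morphants. The rest were lower in replicate 2 of both arms, as *tbxt* was. Sox3 early gastrula morphants broke the order of *tbxt*, which had 359 and 279 CPM there. The plot of library shares shows both features, the spread between numbers in the Foxi2 series and the rise between stages in the Sox3 series.

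**Figure D1:**
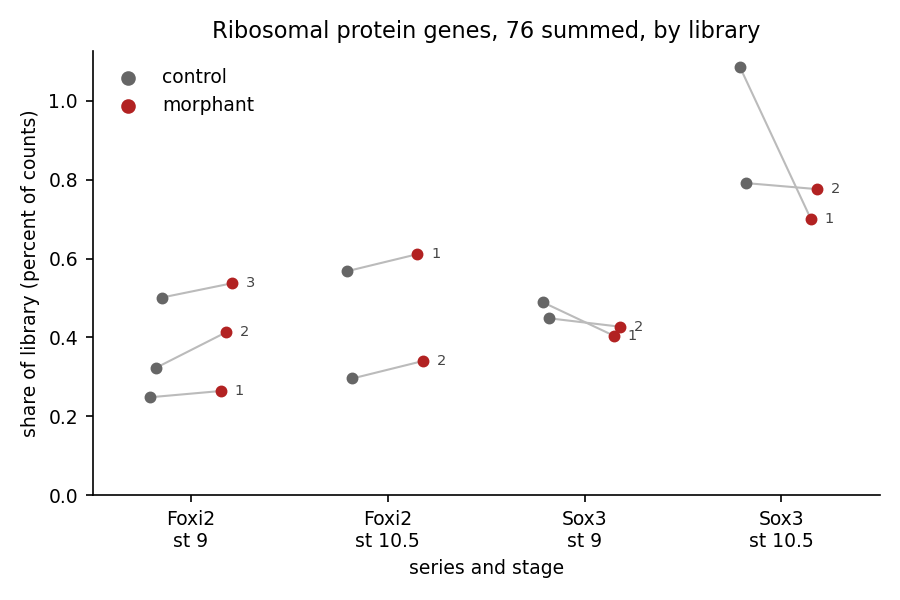
Summed counts of the 76 ribosomal protein genes as percent of all counts (y axis, linear from 0) by series and stage (x axis), grey for controls and red for morphants. Lines join libraries with the same replicate number, given beside the morphant point. Morphants lie above their control in the 5 Foxi2 pairs and below it in the 4 Sox3 pairs, and the Sox3 series early gastrula libraries, 0.700% to 1.08%, lie above all others of the Sox3 series.

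Among the members, mean levels over the 9 controls had a median of 50.2 CPM. CPM are not divided by transcript length, which the sources used here do not give, so the order of genes by CPM is no order of molecule number. *rpl4*, whose protein lines the exit tunnel for the nascent chain, had the highest mean, 238 CPM, followed by *rpl6* with 237 CPM and *rps18*, of the head of the small subunit, with 229 CPM. At the low end stood *rps27l* with 1.56 CPM, *rpl29* with 13.8 CPM and *rps21* with 15.0 CPM. *rps27* and *rps27l* are the members that form a paralog pair by symbol. *rps27* had 73.6 and 70.5 CPM in the Sox3 series late blastula controls against 1.80 and 1.55 CPM for *rps27l*, and 27.5, 26.0 and 40.0 CPM against 1.04, 0.840 and 0.628 CPM in the Foxi2 series. Reads shared by near-identical copies are split by estimate, so the values of this pair are less certain than those of the other members. *rps19bp1*, the member that is no ribosomal protein, had 68.7, 62.6 and 64.8 CPM in the Foxi2 series late blastula controls and 78.5 and 73.8 CPM in the Sox3 series early gastrula controls.

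The first comparison asked how the ribosomal protein mRNAs change from late blastula to early gastrula in the controls. In the Sox3 series most of them rose. All 76 members had more CPM in both early gastrula controls than in both late blastula controls, as did 24.6% of the genes with at least 10 counts in every library, and the log2 fold changes ran from 0.27 to 2.11 with a median of 1.08, against -0.02 over all genes tested. By edgeR's quasi-likelihood test with Benjamini-Hochberg adjustment over all genes, 58 members were called at an adjusted p under 0.05, all higher, where 6.8% of all genes were called higher and 10.8% lower. The large subunit gave 34 of 45 with a median of 1.07 and the small subunit 24 of 31 with a median of 1.10. The call depends on the libraries, as it rests on 2 against 2. The counts that follow show only this dependence, as the share of all genes called is not given for those fits. Without control replicate 2 of late blastula 1 member was called, without replicate 1 of late blastula 9, without replicate 1 of early gastrula 23, and without replicate 2 of early gastrula 73, and a fit of all 18 libraries together called none (smallest adjusted p among the members 0.051).

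*rpl32*, a large subunit gene, rose most. It had 24.2 and 14.6 CPM at late blastula and 104 and 55.9 CPM at early gastrula, a log2 fold change of 2.11 (standard error 0.40, adjusted p = 0.0267). *rps3a* went from 37.1 and 29.3 to 136 and 82.7 CPM, a change of 1.78 (standard error 0.29, adjusted p = 0.0195). *rpl23a*, at the mouth of the exit tunnel where nascent chain factors dock, had 44.2 and 28.6 CPM and then 186 and 74.8 CPM, a change of 1.90 (standard error 0.48, adjusted p = 0.054) that missed the threshold, with early gastrula libraries that lay far apart. Among the members with the smallest p were *rps4x* (1.43, adjusted p = 0.0123), which was also the member called whichever library was left out, *rpl10* (1.30, adjusted p = 0.0145), *rpl7a* (1.03, adjusted p = 0.0173), *rps3* (1.44, adjusted p = 0.0176) and *rpl3* (1.36, adjusted p = 0.0183). At the other end, *rplp0*, the base of the stalk that recruits translation factors, had 192 and 153 CPM and then 262 and 263 CPM, a change of 0.67 (standard error 0.15, adjusted p = 0.0425). *rpl15* changed by 0.76 (standard error 0.16, adjusted p = 0.0351). The smallest value was that of *rps19bp1*, 0.27 (standard error 0.16, adjusted p = 0.297).

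Members with known separate roles moved within the same range. *rpl5* and *rpl11*, whose proteins carry the 5S rRNA and bind Mdm2 when ribosome assembly fails in mammalian cells, changed by 0.92 (standard error 0.19, adjusted p = 0.0353) and 1.06 (standard error 0.20, adjusted p = 0.0279). *rps6*, the S6 kinase substrate, changed by 1.35 (standard error 0.22, adjusted p = 0.0192) and *rps27a*, made as a fusion with ubiquitin, by 1.11 (standard error 0.20, adjusted p = 0.0256). *rps19*, mutated in human Diamond-Blackfan anaemia, had 0.98 (standard error 0.25, adjusted p = 0.0579), *rpl22* 0.89 (0.23, 0.0585 in the same order), and the stalk dimer genes *rplp1* 0.84 (0.21, 0.0557) and *rplp2* 0.88 (0.24, 0.0627). None of these last 4 passed the test.

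In the Foxi2 series the same comparison, 2 early gastrula against 3 late blastula controls, called no member and no gene (0% of 13247). DESeq2 also called no member, and 1 member had an unadjusted p under 0.05. The values were again mostly positive, in 75 of 76 members, with a median of 0.36 against 0.01 over all genes tested. The early gastrula libraries disagreed. Replicate 1 lay above the mean of the late blastula controls in 76 of 76 members, by a median log2 difference of 0.78, whereas replicate 2 lay above it in 27 members, with a median of -0.21. *rpl37*, which had the largest value, showed 6.44, 13.4 and 33.8 CPM at late blastula and 52.9 and 24.3 CPM at early gastrula, a log2 fold change of 1.20 (standard error 0.77, adjusted p = 0.676). *rpl34* and *rpl32* came next, with 1.19 (standard error 0.68) and 1.17 (standard error 0.76). The lowest values were those of *rpl36*, -0.06 (standard error 0.55), *rpl35*, 0.02 (standard error 0.67), and *rplp1*, 0.02 (standard error 0.43). In each of these genes the stages overlapped. Without control replicate 1 of early gastrula the median of the members was -0.23, and without replicate 2 it was 0.80, so 1 library decides its direction. Replicate 1 of early gastrula had 457 CPM of *tbxt* and replicate 2 had 194 CPM. The part of this difference between libraries in the result was not tested.

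The difference between the series in the stage change was called for no member (0% of 14785 genes, 0 members by DESeq2 and 2 at an unadjusted p under 0.05), although the Foxi2 series value was the lower in 76 of 76 members, with a median difference of -0.84 on the log2 scale. The stage changes of the series had Pearson's r = 0.76 and Spearman's rho = 0.70 across the 76 genes, which share their libraries within a series and are no independent replicates. *rpl32*, *rpl37*, *rpl34* and *rps3a* stood high in both. Fitted over all 9 controls with a series term, a fit added after the data had been seen, the members had a median of 0.75 and all 76 were positive, but none was called (0% of 14146 genes, smallest adjusted p 0.0519, 43 members at an unadjusted p under 0.05). DESeq2 called 27 members there, and without Foxi2 series control replicate 3 of late blastula edgeR called 50, without replicate 2 of the Foxi2 series early gastrula controls 21. The share of all genes called is not given for these DESeq2 and leave-out fits, so their counts show only how the call depends on the fit. Nor is the share at an unadjusted p under 0.05 given, so the 43 members cannot be set against all genes. The morphants repeated the pattern by library. In Sox3 morphants 74 of 76 members had both early gastrula libraries above both late blastula libraries (26.7% of all genes), and in Foxi2 morphants 5 did (9.16%). The Foxi2 series morphant of replicate 1 lay above its late blastula mean by a median of 0.73, and that of replicate 2 below it, at -0.14.

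**Figure D2:**
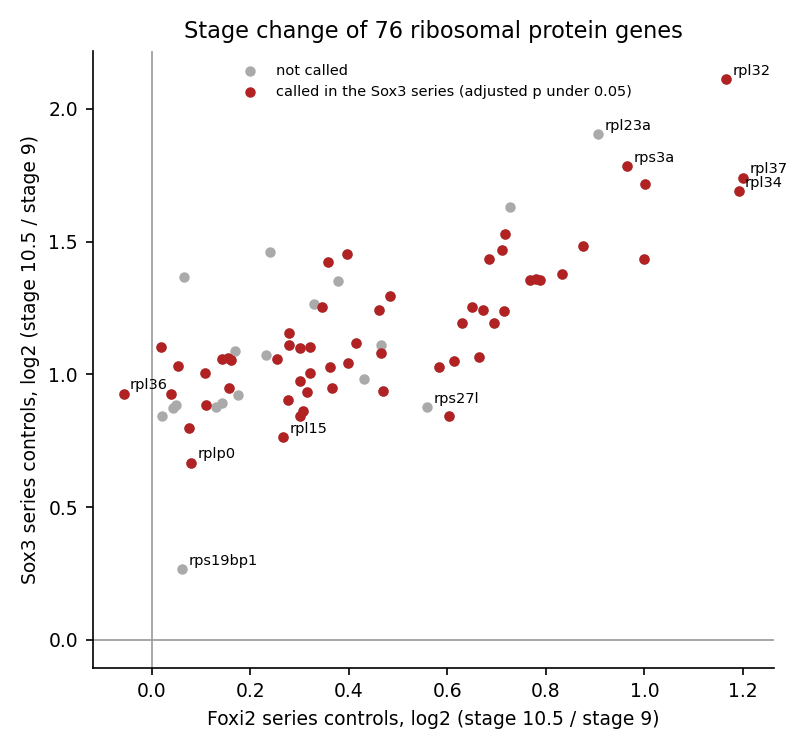
Log2 fold change from late blastula to early gastrula of each of the 76 members in the Foxi2 series controls (x axis) and the Sox3 series controls (y axis), with members called in the Sox3 series in red. All points lie above 0 on the y axis, between 0.27 and 2.11, and 75 lie right of 0 on the x axis, where none was called.

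Genes that work with the ribosomal proteins were read beside them from lists chosen with earlier results of these data known. Ribosomal subunits that the symbol rule leaves out include *rpsa*, *fau* and *rack1*. In the Sox3 series controls *fau* rose by 0.91 (standard error 0.21, adjusted p = 0.044) and *rack1*, a scaffold on the small subunit, by 0.90 (0.15, 0.0207), while *rpsa* had 0.94 (0.33, 0.111). The counts of the lists below stand beside the 6.8% of all genes called higher and the 10.8% called lower. Of 34 translation factor genes tested, 13 rose and none fell, with a median of 0.60. *eef1a1*, which brings aminoacyl-tRNA to the ribosome and served as the normalizer of the study's RT-qPCR, rose by 1.95 (standard error 0.14, adjusted p = 0.00496), from 877 and 817 CPM to 3329.7 and 2952 CPM. *eif4a2* rose by 2.46 and *eif5* by 1.19 (adjusted p = 0.0173 and 0.0163). Of 45 ribosome biogenesis genes, 15 rose and 1 fell, with a median of 0.68. Among those that rose were *wdr12* (2.17, adjusted p = 0.0364) and the nucleolin gene *ncl* (1.11, 0.0145), and the one that fell, looked up after the count, was *eif6* (-0.72, 0.0351). Mitochondrial ribosomal protein genes, whose products build a separate ribosome, gave 1 higher and 1 lower of 77, with a median of 0.38. The higher, looked up after the count, was *mrps18a* (1.51, 0.0233) and the lower *mrpl54* (-1.30, 0.019). Of 11 RNA polymerase I genes none was called, with a median of 0.05, and of 12 genes that regulate translation of ribosomal protein mRNAs 1 fell, *rptor* (-1.02, adjusted p = 0.0178, looked up after the count), with a median of -0.11. In the Foxi2 series none of these genes was called. The medians there were 0.25 for the other subunits, 0.32 for translation factors, 0.36 for ribosome biogenesis, -0.02 for mitochondrial ribosomal proteins, 0.01 for RNA polymerase I and 0.11 for the regulators.

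The next comparison asked whether knockdown of Foxi2 changed the ribosomal protein mRNAs. Tested at each stage without regard to the pairs, none of the 76 members was called, and no gene at all (0% of 12802 at late blastula and 0% of 13215 at early gastrula). Their medians were 0.16 and 0.11, and 2 and 0 members had an unadjusted p under 0.05, while DESeq2 called none at either stage. With the replicate number as a block, 12 members were called at late blastula, 6 higher and 6 lower, where 2.08% of all genes were called, 0.917% higher and 1.16% lower. At early gastrula 9 were called, 6 higher and 3 lower, where 6.05% of all genes were, 3.04% higher and 3% lower. The stages share no library, and 8 members were called at both, each in the same direction. *rpl13*, *rpl15*, *rpl3*, *rpl5* and *rps24* were the higher, and *rpl19* and *rplp0* were among the lower. These 8 are 66.7% of the late blastula and 88.9% of the early gastrula members called. Over all genes 183 were called at both stages, all in the same direction, which is 65.1% of the genes called at late blastula and 22.9% of those called at early gastrula. Over all 76 members, the block values of the stages had Pearson's r = 0.80 and Spearman's rho = 0.74, with 66 of 76 of the same sign.

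A fit of all 5 pairs over both stages, added after the data had been seen, called 29 of 76 members, 21 higher and 8 lower, where 5.98% of all genes were called higher and 6.52% lower. The median over the members was 0.15, and 55 were positive. Leaving out each pair in turn gave 13 to 31 members, fewest without the pair of replicate 3 at late blastula, and 19 without the pair of replicate 1 at early gastrula. In each of these 5 fits 12 of the 29 were called again, 8 higher and 4 lower. The share of all genes called is not given for these fits, so their counts show only how the calls depend on the pairs. By simple sign, 27 members (35.5%) were higher in the morphant in 5 of 5 pairs. Of the genes with at least 10 counts in every library, 11.4% were. Lower in 5 of 5 were 8 members (10.5%), below the 14.4% of those genes. Members were thus called in both directions, but by sign only the higher side exceeded the share of all genes. The plot of changes by pair shows the wide range of single genes around medians of 0.02 to 0.36.

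**Figure D3:**
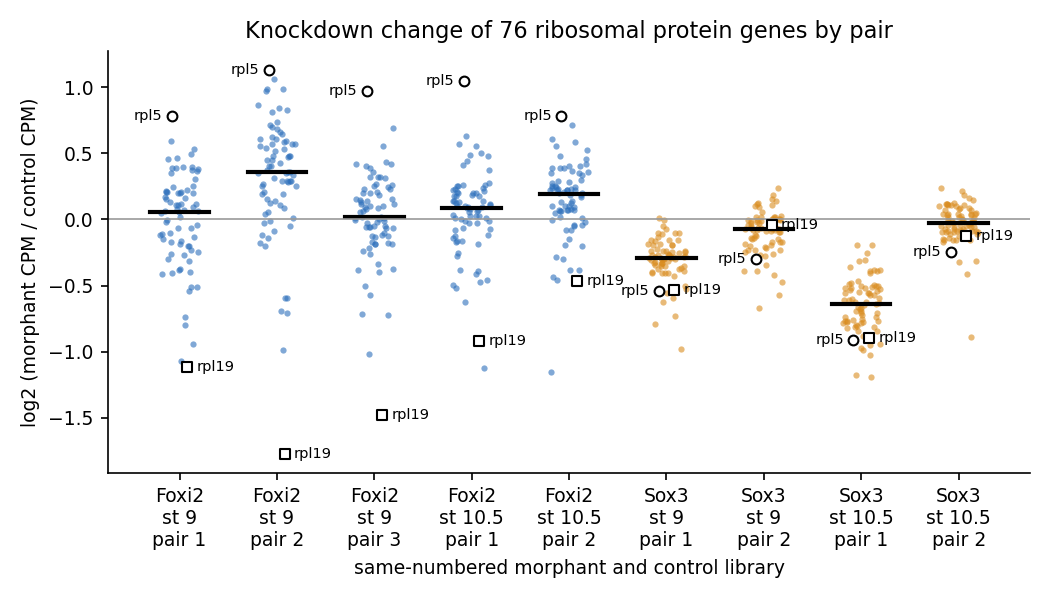
Log2 ratio of morphant to control CPM (y axis) of each of the 76 members in each pair of same-numbered libraries (x axis), blue for the Foxi2 series and orange for the Sox3 series. Black bars mark the median, from 0.02 to 0.36 in the Foxi2 pairs and from -0.64 to -0.03 in the Sox3 pairs, and open symbols mark rpl5 (circle), which changes sides between the series, and rpl19 (square), which lies below 0 in all 9 pairs.

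*rpl5* rose most in Foxi2 morphants. The gene lies on chromosome 4 from 104311576 to 104322018 of the UCB_Xtro_10.0 assembly. *rpl5* had 59.9, 72.4 and 95.1 CPM in late blastula controls against 103, 158 and 186 CPM in same-stage morphants. Early gastrula levels were 92.8 and 53.8 CPM against 192 and 92.5 CPM. Every late blastula morphant lay above every late blastula control, whereas at early gastrula the groups overlapped and the order held within each pair. The log2 ratio by pair was 0.78, 1.13, 0.97, 1.05 and 0.78, and the fit over both stages gave 0.95 (standard error 0.06, adjusted p = 5.34e-05). *rpl3*, whose protein reaches the peptidyl transferase centre and whose gene lies on chromosome 4 from 120831778 to 120837676, came second. *rpl3* had 57.5, 106 and 208 CPM in late blastula controls against 86.7, 221 and 335 CPM in same-stage morphants. Early gastrula levels were 245 and 153 CPM against 359 and 249.9 CPM. Its groups overlapped at late blastula, where replicate 3 was high and replicate 1 low in both arms, and it was higher in the morphant in 5 of 5 pairs, with a fitted change of 0.72 (standard error 0.07, adjusted p = 0.000419). *rpl15*, on chromosome 6 from 46641278 to 46648023, showed 81.4, 89.7 and 122 CPM in late blastula controls against 107, 178 and 178 CPM in their morphants, with a fitted change of 0.59 (standard error 0.08, adjusted p = 0.00277). *rpl28* had 0.51 (standard error 0.10, adjusted p = 0.0108) and *rps24*, mutated in human Diamond-Blackfan anaemia, had 0.50 (standard error 0.05, adjusted p = 0.000827). The other 3 members that stayed called and higher whichever pair was left out were *rpl32* (0.43), *rps15a* (0.42) and *rpl13* (0.39), and the remaining 13 called higher ran from 0.17 for *rpl4* to 0.50 for *rps29*.

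*rpl19*, which forms bridges between the subunits, fell most. It lies on chromosome 10 from 10367253 to 10373809. *rpl19* had 17.9, 37.2 and 52.0 CPM in late blastula controls against 8.24, 10.9 and 18.7 CPM in same-stage morphants. Early gastrula levels were 50.6 and 21.4 CPM against 26.7 and 15.5 CPM. The groups touched at late blastula only in that the highest morphant, 18.7 CPM, lay just above the lowest control, 17.9 CPM. The log2 ratio by pair was -1.12, -1.77, -1.48, -0.92 and -0.47, and the fit over both stages gave -1.15 (standard error 0.16, adjusted p = 0.00274). *rplp0*, on chromosome 1 from 151566893 to 151572130, showed 86.8, 166 and 208 CPM in late blastula controls against 52.2, 110.0 and 126 CPM in their morphants. Its early gastrula values were 208 and 95.9 CPM against 135 and 73.5 CPM, a fitted change of -0.61 (standard error 0.06, adjusted p = 0.000419). Its stalk partners had values of the other sign. *rplp2* rose by 0.37 (standard error 0.08, adjusted p = 0.0194), and *rplp1* had 0.10 (standard error 0.06, adjusted p = 0.38). The call of *rplp2* held in 3 of 5 fits that left out a pair. *rps27a* fell by 0.50 (standard error 0.09, adjusted p = 0.0103) and was called whichever pair was left out. *rpl17*, of the exit tunnel wall, was lower in 5 of 5 pairs, by -1.07, -0.71, -0.71, -0.38 and -0.08 on the log2 scale, and lost its call in 2 of 5 fits that left out a pair. *rpl9* (-0.41), *rpl12* (-0.37) and *rps3* (-0.20) were also called lower, but kept the call in only 3, 2 and 1 of these 5 fits. *rps27l* had a fitted value of -0.63 (standard error 0.33, adjusted p = 0.26), with 1.48 and 0.837 CPM in the early gastrula controls and 0.679 and 0.376 CPM in the morphants, a level of few counts.

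Other members with known roles gave smaller values in Foxi2 morphants. *rpl11*, the partner of *rpl5* in the 5S particle, had 0.23 (standard error 0.08, adjusted p = 0.0858) and was higher in 4 of 5 pairs. *rps19* had -0.03 (standard error 0.10, adjusted p = 0.872) and *rps6* 0.23 (standard error 0.09, adjusted p = 0.147), whereas *rpl22* rose by 0.32 (standard error 0.06, adjusted p = 0.00863). The highest-level members differed little, with *rpl4* at 0.17, *rpl6* at 0.24 and *rps18* at 0.16, of which *rpl4* and *rpl6* were called. The calls of *rpl4*, *rpl6* and *rpl22* held in 1, 3 and 4 of the 5 fits that left out a pair. The subunits gave the same medians, 0.15 for the large and 0.15 for the small.

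**Figure D4:**
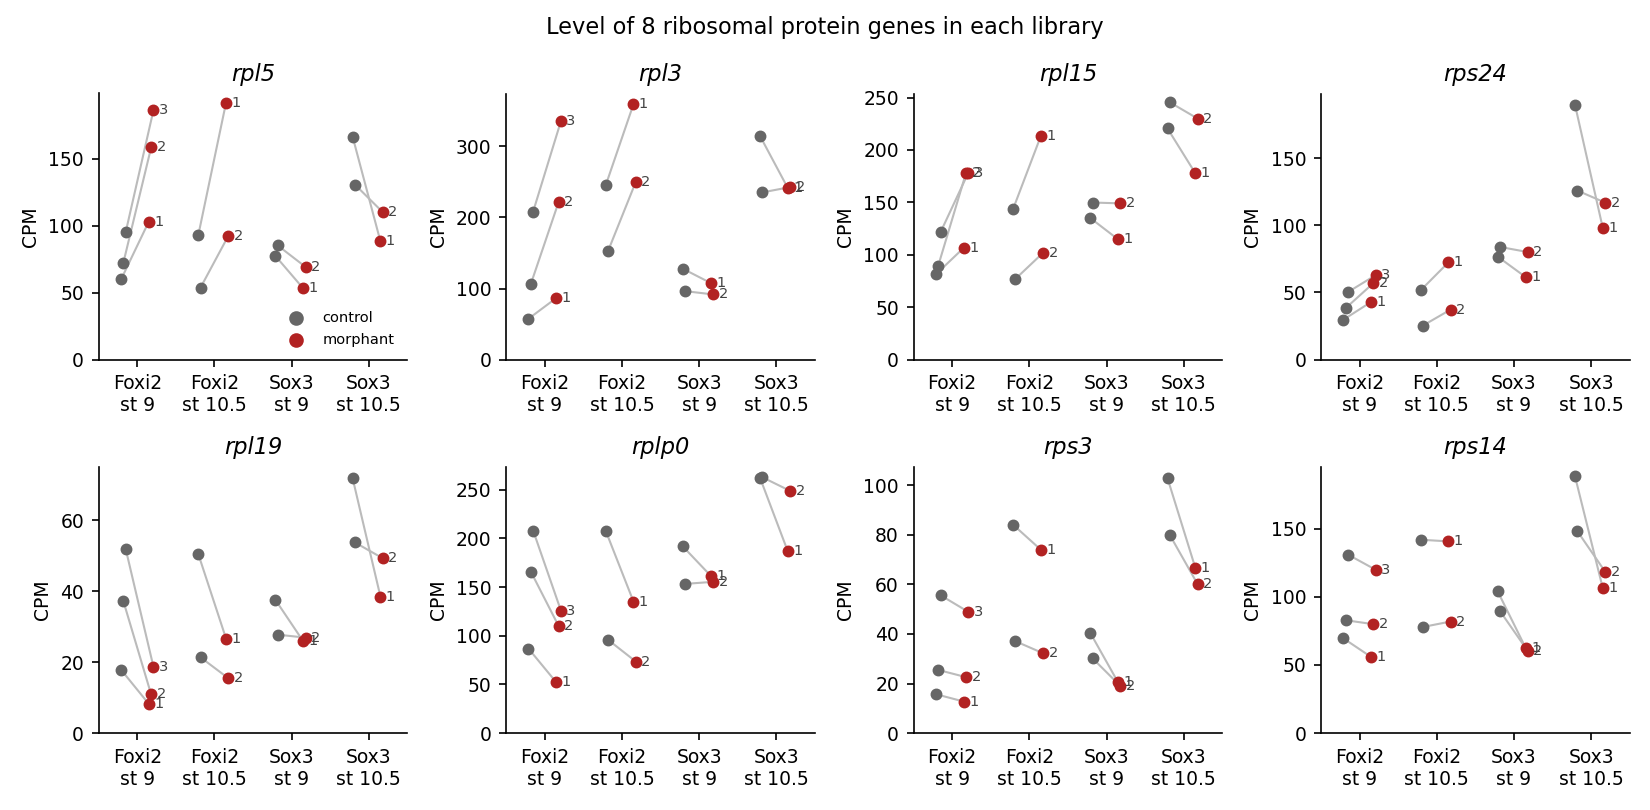
CPM (y axes, linear from 0) of 8 members in each library by series and stage (x axes), grey for controls and red for morphants, with lines between libraries of the same replicate number. rpl5, rpl3, rpl15 and rps24 are higher in the morphant in 5 of 5 Foxi2 pairs, rpl19 and rplp0 are lower in 5 of 5, and rps3 and rps14 are lower in 4 of 4 Sox3 pairs.

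The same question was asked of Sox3. Tested at each stage without the block, no member and no gene was called (0% of 13909 at late blastula and 0% of 14427 at early gastrula), with 5 and 4 members at an unadjusted p under 0.05, and DESeq2 called 1 member at late blastula and none at early gastrula. The medians were -0.20 and -0.36, and 5 and 0 of the 76 members had a positive value. With the block, 7 members were called at late blastula, all lower, where 2.6% of all genes were called, 0.719% higher and 1.88% lower. They were *rpl10a*, *rpl23a*, *rpl30*, *rpl5*, *rps14*, *rps27* and *rps3*. At early gastrula 0 were, where 4.77% of all genes were called, 2.61% higher and 2.16% lower. Fitted over all 4 pairs, a fit added after the data had been seen, all 76 members had negative values, with a median of -0.28 and a range from -0.68 to -0.05, and 2 were called lower, where 2.19% of all genes were called, 0.832% higher and 1.36% lower. DESeq2 called 7 and a fit without a filter on low counts 7. For the DESeq2 and unfiltered fits the share of all genes called is not given, so their counts show only how the call depends on the fit. By sign, 37 members were lower in the morphant in 4 of 4 pairs (13.8% of the genes with at least 10 counts in every library) and 0 were higher in 4 of 4 (15%). The size differed between pairs. The median was -0.29 in pair 1 and -0.07 in pair 2 of late blastula, and -0.64 in pair 1 and -0.03 in pair 2 of early gastrula, where 76 and 44 members were lower. Between the stages, which share no library, the block values had Pearson's r = 0.38 and Spearman's rho = 0.35 over the 76 members. The early gastrula control of pair 1 had the highest share of all libraries, 1.08%.

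*rps3*, at the entry of the mRNA channel, and *rps14*, of the small subunit platform, were the members called. *rps3* lies on chromosome 2 from 172175881 to 172185768. *rps3* had 40.4 and 30.1 CPM in late blastula controls against 20.5 and 19.0 CPM in same-stage morphants. Early gastrula levels were 103 and 79.9 CPM against 66.7 and 60.0 CPM. The groups did not overlap at either stage, and the log2 ratio by pair was -0.98, -0.67, -0.62 and -0.41, with a fitted change of -0.68 (standard error 0.10, adjusted p = 0.0232). *rps14* lies on chromosome 3 from 21556669 to 21562126. *rps14* had 104 and 89.4 CPM in late blastula controls against 62.7 and 60.2 CPM in same-stage morphants. Early gastrula levels were 189 and 148 CPM against 106 and 119 CPM. Again the groups did not overlap at either stage, and the fitted change was -0.62 (standard error 0.10, adjusted p = 0.029). Without the pair of replicate 1 at late blastula neither was called, and *rps3* was called in 2 of 4 and *rps14* in 3 of 4 fits that left out a pair. *rpl23a* had -0.61 (standard error 0.15, adjusted p = 0.111), with 186 and 74.8 CPM in the early gastrula controls and 91.3 and 67.2 CPM in the morphants. *rpl5* had -0.51 (standard error 0.12, adjusted p = 0.101) and was lower in 4 of 4 pairs, and *rpl19* had -0.42 (standard error 0.15, adjusted p = 0.249). Among the values closest to 0 were those of *rps18* (-0.05) and *rps4x* (-0.08). *rpl11* (-0.24), *rps19* (-0.29), *rps6* (-0.19), *rps27a* (-0.38), *rpl22* (-0.26) and the stalk genes *rplp0* (-0.21), *rplp1* (-0.25) and *rplp2* (-0.31) were not called. By stage without the block, *rps18* and *rps27l* had the highest values at late blastula (0.08 and 0.01) and *rpl36*, *rpl23* and *rps4x* at early gastrula (-0.12, -0.13 and -0.14), and *rps27l*, *rpl23a* and *rpl39* the lowest at early gastrula (-0.86, -0.74 and -0.73).

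Whether the knockdowns differ was tested as the interaction of series and morphant. Each factor was knocked down in its own series only, so a difference between the factors cannot be told apart from one between the series. At each stage without the block no member was called (0% of 14316 and 0% of 14933 genes, no member by DESeq2, and 2 and 1 members at an unadjusted p under 0.05). With the block 9 members were called at late blastula, where 1.98% of all genes were, 1.37% with the Foxi2 value above and 0.608% with it below the Sox3 value. At early gastrula 1 was called, where 1.35% of all genes were, 0.817% above and 0.529% below. Over all 9 pairs, in the fit added after the data had been seen, 17 members were called, all with the Foxi2 value above the Sox3 value, where 3.02% of all genes were called in that direction and 2.6% in the other. Leaving out each pair in turn gave 8 to 22 members, fewest without the Foxi2 pair of replicate 2 at late blastula. It gave 10 each without the Foxi2 pair of replicate 3 at late blastula, the Foxi2 pair of replicate 1 at early gastrula and the Sox3 pair of replicate 1 at late blastula. Here too the share of all genes called is not given for the fits that left out a pair, so their counts show only this dependence. The members called in all 9 of these fits were *rpl5*, *rpl3*, *rpl15*, *rps24*, *rps15a*, *rpl13* and *rpl10a*. *rpl5* differed most, by 1.47 (standard error 0.14, adjusted p = 0.000177), and was higher in 5 of 5 Foxi2 pairs and lower in 4 of 4 Sox3 pairs. *rpl3* differed by 0.91 (standard error 0.12, adjusted p = 0.00112) and *rpl28* by 0.89 (standard error 0.19, adjusted p = 0.0202). *rpl19* and *rplp0* had negative differences, -0.72 and -0.39, that did not pass the test in this fit (adjusted p = 0.11 and 0.0714). With the block at late blastula both were called, at -1.16 and -0.55 (adjusted p = 0.0182 and 0.0361). At early gastrula they had -0.16 and -0.18 with the block and were not called. Across the 76 members the fitted values of Foxi2 and Sox3 knockdown had Pearson's r = 0.19 and Spearman's rho = 0.22, and 21 had the same sign.

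**Figure D5:**
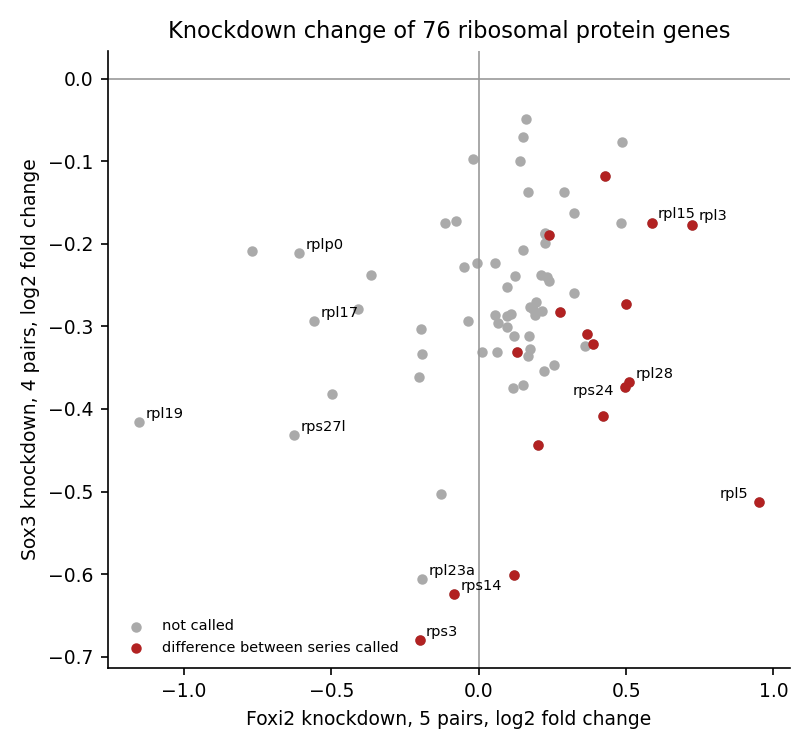
Log2 fold change over both stages in Foxi2 morphants (x axis, 5 pairs) and in Sox3 morphants (y axis, 4 pairs) of the 76 members, red where the difference between the series was called. All points lie below 0 on the y axis, between -0.68 and -0.05, while on the x axis they run from -1.15 (rpl19) to 0.95 (rpl5).

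The lists gave the following beside these values. In the Foxi2 fit over both stages, *rpsa* rose by 0.62 (standard error 0.12, adjusted p = 0.011) and *rack1* by 0.43 (0.05, 0.00097), while *fau* had 0.18 without a call. The lists' counts in this fit stand beside the 5.98% of all genes called higher and the 6.52% called lower. Of 34 translation factor genes 1 rose, *eef1b2* by 0.49 (adjusted p = 0.00604), and 7 fell, with *eif3b* at -0.88 (8.45e-05) and *eif5* at -0.29 (0.0356) among them (median 0.02). Here and below, single genes behind a count were looked up after it, apart from *eif5*, *ncl*, *ubtf* and *eef1a1*. Of 45 ribosome biogenesis genes 5 rose and 8 fell (median 0.01), of 77 mitochondrial ribosomal protein genes 6 rose and 6 fell (median -0.04), of 11 RNA polymerase I genes *ubtf* rose (0.17) and *polr1b* fell (-0.39; median -0.01), and of the 12 regulators *rheb*, an activator of mTOR, rose (0.45, adjusted p = 0.000419) and none fell (median -0.03). In the Sox3 fit, where 0.832% of all genes were called higher and 1.36% lower, none of the subunits outside the symbol rule was called, with a list median of -0.30, and *eef1a1* had -0.33 (standard error 0.12, adjusted p = 0.242) against 0.02 (0.04, 0.836) in the Foxi2 fit. Translation factors had a median of -0.07 with none called, ribosome biogenesis genes -0.05 with *bysl* lower (-0.60), mitochondrial ribosomal proteins -0.15 with none called, RNA polymerase I genes 0.00 with none called, and the regulators 0.06 with *rheb* lower (-1.03, adjusted p = 0.0134). Germ layer genes moved in the same fits. Of the 11, 6 were called higher and 3 lower in Foxi2 morphants, among them *gata6* (0.34) and *krt70*, of the epidermis (-1.08), and *tfap2a* (-1.49) and *sox2* (-0.74) were called lower in Sox3 morphants. The part of these genes' cell types in the ribosomal protein values was not tested.

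The replicate number carried much of the spread. In the Foxi2 libraries it made up 84.3% of the variance of the members' log2 CPM at late blastula and 90.7% at early gastrula, against 12.3% and 8.10% between morphants and controls. For all genes with at least 10 counts in every library the corresponding values were 91.9% and 79.1%, against 4.79% and 16.5%. In the Sox3 libraries the number made up 36.7% and 27.4% for the members, less than the 51.2% and 40.4% between morphants and controls. For all genes it made up 74.3% and 57.2%, more than the 19.0% and 31.2% between morphants and controls.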

How the data were processed

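RNA-seq of poly(A)-selected RNA from whole *X. tropicalis* embryos gave 18 libraries in 4 tables, 1 for each factor and stage. The authors deposited RSEM expected counts per gene against the V10.0 genome. The submitters' processing notes list RSEM 1.2.12 and Bowtie2 2.2.7, whereas the methods name STAR with RSEM. The values are called normalized there, but library totals differ from 12740571 to 27866261, so they were taken as unscaled. RSEM shares reads between similar copies by estimate, which makes paralogs less certain.

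Expected counts were rounded to whole numbers. Genes were filtered with filterByExpr, scaled by TMM and tested with the quasi-likelihood test of edgeR 4.0.16 (limma 3.58.1, R 4.3.3), with Benjamini-Hochberg adjustment over all genes tested, and called at an adjusted p under 0.05 with no fold minimum. All adjusted p-values in the text are from edgeR unless DESeq2 1.42.0 is named. Counts of members at an unadjusted p under 0.05 are given without the share of all genes, so they cannot be set against it. All 76 members passed the filter in each comparison. CPM and shares use the total of each library. Groups came from the sample labels, and 0 sample columns were left unused. The code was tested on simulated data.

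Morphant and control libraries of the same number deviated together, with correlations of their deviations from the group means of 0.954, 0.810 and 0.944 for Foxi2 at late blastula. They were 0.891 for Foxi2 at early gastrula and 0.829 and 0.678 for Sox3, where groups of 2 fix the deviations up to sign. This pairing comes from the values, over 5 Foxi2 and 4 Sox3 pairs, and the labels do not state it. The chi-square between replicates per gene ran from 40.5 to 178, so no library was a repeat of another.

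The members and gene lists were chosen with earlier results of these data known. Named genes were the 3 highest and 3 lowest members by fold change in each comparison at a stage and by mean CPM, paralog pairs, members and outside subunits with known roles, called members (the 6 with the smallest p), and the 3 genes of each list with the largest stage change in the Foxi2 controls. Results for some genes that this rule names are not reported here. Members named for the fits over both stages were chosen after their values were seen, as were the fits themselves. Alternatives were the replicate block, DESeq2, no filter on low counts, library size in place of TMM, TMM without the members, at least 2-fold change, all 18 libraries in 1 fit, and each library or pair left out.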

Additional observations from a re-analysis of the deposited data

Results flagged for a closer look

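The difference between the knockdowns over both stages, in a fit added after the data had been seen, was called in 17 of the 76 members. In each of the 17 the Foxi2 value lay above the Sox3 value. Of all genes tested, 3.02% were called in that direction and 2.6% in the other. Tested at each stage without the replicate block, no member was called. In every fit that left out a pair, 7 of the 17 were called again. The share of all genes called is not given for those fits, and factor and series cannot be told apart in this difference. The log2 difference was 1.47 for *rpl5* (edgeR adjusted p = 0.000177), 0.91 for *rpl3*, 0.89 for *rpl28*, 0.88 for *rps24*, 0.84 for *rps15a*, 0.78 for *rps29* and 0.77 for *rpl15*. It was 0.73 for *rps27*, 0.72 for *rpl13*, 0.69 for *rplp2*, 0.65 for *rpl10a*, 0.57 for *rpl18*, 0.56 for *rpl32* and 0.55 for *rps14*. The smallest were 0.48 for *rps3*, 0.47 for *rpl27* and 0.44 for *rpl6*. Of the 9 fits that left out a pair, the calls of *rpl27* and *rpl32* held in 1 and those of *rpl6* and *rpl18* in 2. In Foxi2 morphants *rps3* itself was called lower (-0.20) and *rps14* had -0.08, against -0.68 and -0.62 in Sox3 morphants. That call of *rps3* held in 1 of 5 fits that left out a pair. No group held the 4 libraries that a check for single outlying values needs.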

How the results depend on the processing

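With the replicate block, 12 members were called for Foxi2 knockdown at late blastula, 9 at early gastrula and 7 for Sox3 at late blastula, all from 0 without it. For the difference between the knockdowns the block gave 9 and 1, also from 0. Replicate numbers are not shown to pair the stages (correlation of deviations -0.34 in the Foxi2 and 0.69 in the Sox3 controls). The Sox3 value is close to the 0.678 between Sox3 morphants and controls at early gastrula, which were read as pairs. Groups of 2 fix both values up to sign, so the match of numbers rests on the sign in either case. With a replicate block across the stages, the Sox3 stage change gave 74 members and the Foxi2 one 0. DESeq2 called 1 member for Sox3 at late blastula, and over both stages 7 for Sox3, 29 for the difference and 27 for the stage change of both series. Without a filter on low counts these 3 were 7, 35 and 1, and library size alone gave 1 for the last. At least 2-fold left 1 for Foxi2 over both stages, 0 for Sox3 and 1 for the difference. All 18 libraries in 1 fit gave 0 for the Sox3 stage change. Leaving out a library or pair gave 1 to 73 there, 13 to 31 for Foxi2 over both stages, 0 to 2 for Sox3, 8 to 22 for the difference and 0 to 50 for the stage change of both series. TMM without the members changed no count of members called. Apart from the knockdown blocks, the share of all genes called is not given for these alternatives. Their counts show only how the calls depend on the processing.

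Member medians ranged, with a library left out, from -0.14 to 0.53 and from -0.48 to 0.77 for Foxi2 knockdown at late blastula and early gastrula. They ranged from -0.24 to -0.15 and from -0.63 to -0.11 for Sox3, and from -0.23 to 0.80 and 0.83 to 1.33 for the stage change of the Foxi2 and Sox3 controls. Each such fit unbalances the pairs. Values that changed sign with a library left out ranged from -1.28 to 0.038 for *rpl19* and from -1.09 to 0.18 for *rplp0* (Foxi2, early gastrula). For Sox3 at late blastula they were -0.13 to 0.32 for *rps18* and -0.075 to 0.094 for *rps27l*, and at early gastrula -1.27 to 0.054 for *rpl23a*, -0.32 to 0.059 for *rpl23* and -0.32 to 0.047 for *rps4x*. In the Foxi2 stage change they were -0.74 to 0.40 for *rpl36*, -0.94 to 0.67 for *rpl35* and -0.55 to 0.42 for *rplp1*, where the block gave 0.29 for *rpl36* and library size alone -0.070 for *rpl35* and -0.070 for *rplp1*. Over both stages of Sox3 they were -0.15 to 0.14 for *rps18* and -0.17 to 0.054 for *rps4x*. With TMM-scaled library sizes the share of the members in replicate 1 of the Sox3 series at late blastula was 0.373% in the morphant and 0.452% in the control. Among single-gene values under all alternatives, 525 kept their direction and call, 25 gained and 39 lost the call, and 21 turned. The causes were not tested. Low counts limit *rps27l* most.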
